A study of Petunia x hybrida with 12 samples.

Results

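The haem peroxidase genes of petunia roots were followed across 4 groups of RNA-seq libraries. They were chosen as all genes of the 2 deposited tables whose GO string joins response to oxidative stress, haem binding, peroxidase activity and oxidation-reduction and holds no other term. The rule used the annotation only, and 149 of 32928 gene models met it. All 149 carry the InterPro haem peroxidase domain entry as their only domain, and no other gene in the tables carries it. The working name of the group is class III peroxidases, and the descriptions in the tables bear this out for 130 of the 149, of which 125 are called peroxidase superfamily protein. The remaining 19 are described as something else: 6 ascorbate peroxidases, 5 alpha dioxygenases, 1 thylakoid lumen protein and 7 unknown proteins. They are kept as members of the rule and named by their description. The median transcript model of a member is 972 bases long. Their best Arabidopsis matches are 47 different genes, which serve below as names. The match to PRX52 (AT5G05340) is the most frequent with 22 members, followed by PRX5 with 10, PRX3 with 8, and PRX9 and PRX64 with 7 each.

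Class III peroxidases are secreted plant enzymes with a haem group. They use hydrogen peroxide to oxidise phenolic compounds, by which lignin and suberin are polymerised and extensins are cross-linked in the cell wall, and they can also release reactive oxygen. In Arabidopsis roots PRX3, PRX9, PRX39, PRX64 and PRX72 take part in building the lignin of the Casparian strip in the endodermis, PRX44 and its relatives act in the wall of growing root hairs, and PRX52 and PRX72 act in stem lignin. Ascorbate peroxidases are intracellular enzymes that remove hydrogen peroxide, and alpha dioxygenases add oxygen to fatty acids.

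The study compared mycorrhizal roots, colonised by the arbuscular mycorrhizal fungus Rhizophagus irregularis, with control roots that had no fungus. Both were taken from 2 genotypes of Petunia hybrida: *ram1*, which carries the allele ram1-2 in the GRAS transcription factor gene *RAM1*, needed for normal arbuscules, and the wild type (WT) line W115. The 4 groups are thus *ram1* mycorrhizal, *ram1* control, WT mycorrhizal and WT control, with 3 replicate plants each, and mycorrhizal roots were harvested at 15 days post inoculation. The plants were grown with nurse plant inoculation, which brings the fungus into mutant roots too. The study reported a lower mean colonisation in *ram1* than in WT mycorrhizal roots, with spreads that overlapped, and a lower share of fungal reads. In comparisons of the genotypes that involve mycorrhizal roots, the genotype and the amount of fungus therefore cannot be told apart. Whole roots were sequenced, so that cell types are mixed.

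The 12 libraries held 7152267 to 13391147 counted reads. *RAM1* itself (Peaxi162Scf00420g00650.1) had 6.07 to 8.63 CPM (read counts scaled to library size by TMM) in *ram1* mycorrhizal, 0.148 to 0.328 in *ram1* control, 108.6 to 128.6 in WT mycorrhizal and 0.0813 to 0.335 in WT control roots. The label check by *RAM1* therefore separated the genotypes in mycorrhizal roots and not in control roots. The 6 arbuscule genes named by the study, summed, were at 16.6 to 37.8 CPM in *ram1* mycorrhizal, 2.85 to 7.12 in *ram1* control, 1514 to 1701 in WT mycorrhizal and 9.95 to 48.5 in WT control roots. The first principal component of all genes held 58.2% of the variance and separated *ram1* from WT. Replicate 1 of *ram1* mycorrhizal and replicate 3 of *ram1* control stood apart from their replicates, and counts are given below with and without these 2 libraries. Every *ram1* library came from ram1-2 plants and every WT library from W115, so that the mutation and any other difference between the lines cannot be told apart.

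Of the 149 members, 116 reached a mean of 10 reads in at least 1 group and were tested, together 116 of 22954 genes tested. Of the other 33 members 6 had no read in any library, and the remaining 27 had at most 54 reads over all libraries. Between the tested members, the deposited RPKM (reads scaled to transcript length and library size, averaged over the 12 libraries) spanned 0.449 to 1724 with a median of 35.5. All members together took 11403 to 13013 CPM in *ram1* mycorrhizal, 13059 to 14926 in *ram1* control, 8849 to 12855 in WT mycorrhizal and 10962 to 14340 in WT control roots. The *ram1* mycorrhizal range lay below the *ram1* control range, and the 2 WT ranges overlapped.

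Few members rose in mycorrhizal roots, and most of those that passed the test were lower. In *ram1* roots 10.1% of all genes tested differed between mycorrhizal and control roots, and in WT roots 21.7% did. In *ram1* roots 3 members were higher in mycorrhizal than in control roots, or 2.59% of those tested, where 4.91% of all genes were called higher, and 19 were lower, or 16.4%, where 5.17% of all genes were called lower (edgeR quasi-likelihood test, adjusted p below 0.05). In WT roots 6 members were higher, or 5.17%, where 12.6% of all genes were, and 10 were lower, or 8.62%, where 9.14% of all genes were. The share of members lower in WT roots was thus near that of all genes. The median log2 fold change of the members was -0.50 in *ram1* and -0.43 in WT, while the medians over all genes tested were 0.05 in *ram1* and -0.002 in WT. In the *ram1* comparison 42 of the 116 tested members had every mycorrhizal library below every control library, where 13.9% of all genes did. There 9 of the 116 had every one above, where 16.6% of all genes did. In the WT comparison 25 of the 116 lay wholly below, where 20.0% of all genes did. There 9 of the 116 lay wholly above, where 22.3% of all genes did. The share wholly below in WT was near that of all genes. Whether a lower value stood for fewer cells of a type or for less RNA per cell cannot be told apart in whole roots.

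The number of lower members in *ram1* depended on single libraries. Without the 2 libraries that stood apart, 43 members were lower, or 37.1%, where 11.6% of all genes were. In the same fit 11 were higher, or 9.48%, where 13.0% of all genes were. Leaving out 1 library gave 37 lower members without replicate 1 of *ram1* mycorrhizal, 2 without its replicate 2, 1 without its replicate 3, 3 without replicate 1 of *ram1* control and 7 without its replicate 2. It gave 10 without replicate 1 or 2 of WT mycorrhizal or replicate 3 of WT control. The 3 higher members in *ram1* became 8 without replicate 3 of *ram1* control. In WT the 10 lower members became 6 without replicate 2 and 4 without replicate 3 of WT mycorrhizal, 6 without replicate 3 of WT control, and 16 without the 2 libraries that stood apart, where 11.7% of all genes were lower. The higher WT members stayed at 6 or 7 with each library left out in turn.

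**Figure D1:**
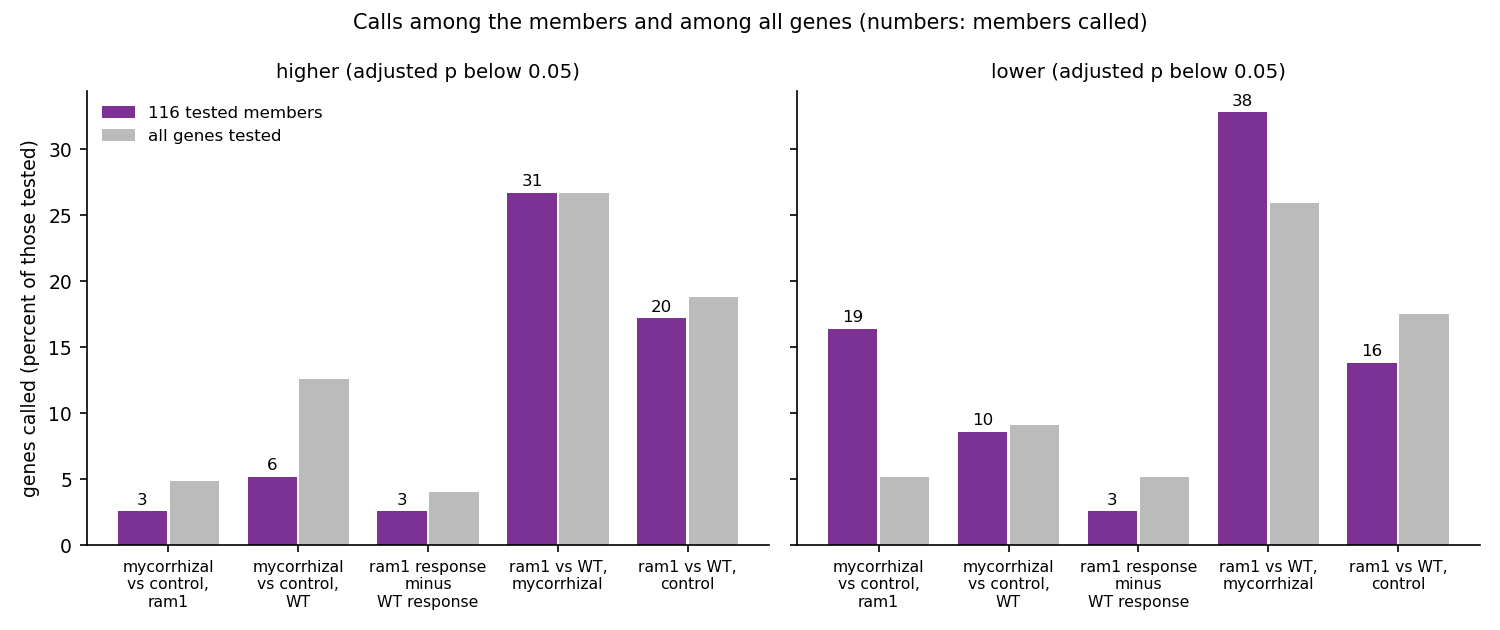
Percent of the 116 tested members (purple) and of all genes tested (grey) that passed the edgeR test in 5 comparisons, higher on the left and lower on the right, with the number of members above each bar. The 19 members lower in *ram1* mycorrhizal roots were 16.4% of the members against 5.17% of all genes, whereas in the WT comparison the members were called higher at 5.17% against 12.6% of all genes.

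A pair of peroxidases had few or no reads in control roots and was higher with the fungus in both genotypes, most of all in WT. Peaxi162Scf00062g00127.1, a match to PRX44, had 70.7, 135 and 133 CPM in *ram1* mycorrhizal against 0.328, 1.00 and 1.19 CPM in *ram1* control roots. In WT it had 242, 317 and 256 CPM in mycorrhizal and 0.0813, 0.0838 and 0.0783 CPM in control roots, where the control values stand for 3 reads in all. Every mycorrhizal library lay above every control library, and the WT mycorrhizal libraries lay above the *ram1* mycorrhizal ones. The log2 fold change was 7.04 ± 0.37 in *ram1* (SE, adjusted p = 1.5e-06), and in WT the ratio was 3353 with an exact 95% counting interval of 1147 to 16263 (adjusted p = 3.71e-08). The response was smaller in *ram1* by -4.50 ± 0.77 on the log2 scale (adjusted p = 0.00595), although the size of this difference hangs on the 3 reads of WT control roots. In mycorrhizal roots alone *ram1* was below WT by a log2 fold change of -1.27 ± 0.26 (adjusted p = 0.0021), and in control roots *ram1* was 10.5-fold above WT (33 reads against 3, counting interval 3.30 to 53.7, adjusted p = 0.00608).

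Peaxi162Scf01633g00012.1, a match to PRX9, showed a like pattern in WT at a much lower level in *ram1*. Its levels were 3.35, 7.36 and 6.60 CPM in *ram1* mycorrhizal against 0, 0.308 and 0.0742 CPM in *ram1* control roots. In WT they were 125, 148 and 154 CPM in mycorrhizal and 0, 0 and 0.235 CPM in control roots. In mycorrhizal roots all 3 *ram1* libraries thus lay far below all 3 WT libraries, with a log2 fold change of -4.65 ± 0.36 (adjusted p = 2.64e-06). The gene was called higher with the fungus in *ram1* (5.34 ± 0.61, adjusted p = 0.000502) and in WT (5130 reads against 3, ratio 1764 with a counting interval of 603 to 8555, adjusted p = 2.22e-07). The test of the difference between the responses did not pass (-5.26 ± 1.55, adjusted p = 0.0583). Without replicate 2 of *ram1* control, which held most of its reads there, the *ram1* log2 fold change was 6.84, and without replicate 3 of WT control, which held all of them, that of WT was 13.72.

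Another member was higher with the fungus in both genotypes. Peaxi162Scf00195g00124.1, a match to PRX28, had 103, 50.1 and 36.5 CPM in *ram1* mycorrhizal against 20.8, 12.0 and 17.8 CPM in *ram1* control roots. In WT it had 32.1, 38.1 and 35.6 CPM in mycorrhizal and 9.51, 4.27 and 13.4 CPM in control roots, without overlap in either genotype. The log2 fold changes were 1.91 ± 0.42 in *ram1* (adjusted p = 0.0232) and 1.96 ± 0.43 in WT (adjusted p = 0.00806), and their difference was -0.05 ± 0.58. The *ram1* call was lost without replicate 2 of *ram1* mycorrhizal (adjusted p = 0.0506) and without replicate 1 or 2 of *ram1* control (0.0647 and 0.0805), and with only the 6 *ram1* libraries (0.0751). These 3 genes were all of those higher in *ram1*, and all 3 were among the 6 higher in WT.

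The remaining 3 members higher with the fungus passed in WT. Peaxi162Scf00950g00007.1, a match to PRX52, had 226, 296 and 299 CPM in *ram1* mycorrhizal against 122, 172 and 217 CPM in *ram1* control roots, and 494, 507 and 383 CPM in WT mycorrhizal against 149, 155 and 146 CPM in WT control roots. It rose by 1.62 ± 0.20 on the log2 scale in WT (adjusted p = 0.000195), while the value in *ram1* was 0.68 ± 0.20 (adjusted p = 0.0518) and the difference between the responses was -0.94 ± 0.28 (adjusted p = 0.0591). Peaxi162Scf00459g00127.1, a match to PRX46 and the lowest of the tested members by RPKM, had 1.94, 1.59 and 1.60 CPM in WT mycorrhizal and 0.325, 0.168 and 0.235 CPM in WT control roots, a log2 fold change of 2.76 ± 0.40 (adjusted p = 0.000647). In *ram1* it had 2 reads in mycorrhizal and 3 in control roots, too few to give a fold, and in mycorrhizal roots *ram1* was 26.3-fold below WT (2 reads against 61, counting interval 6.98 to 222.3). The fitted log2 fold change there was -4.50, and -3.82 without replicate 1 of *ram1* mycorrhizal, which had none of the reads. The last of the 6, Peaxi162Scf00362g00830.1, is an ascorbate peroxidase and is described with its relatives below.

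**Figure D2:**
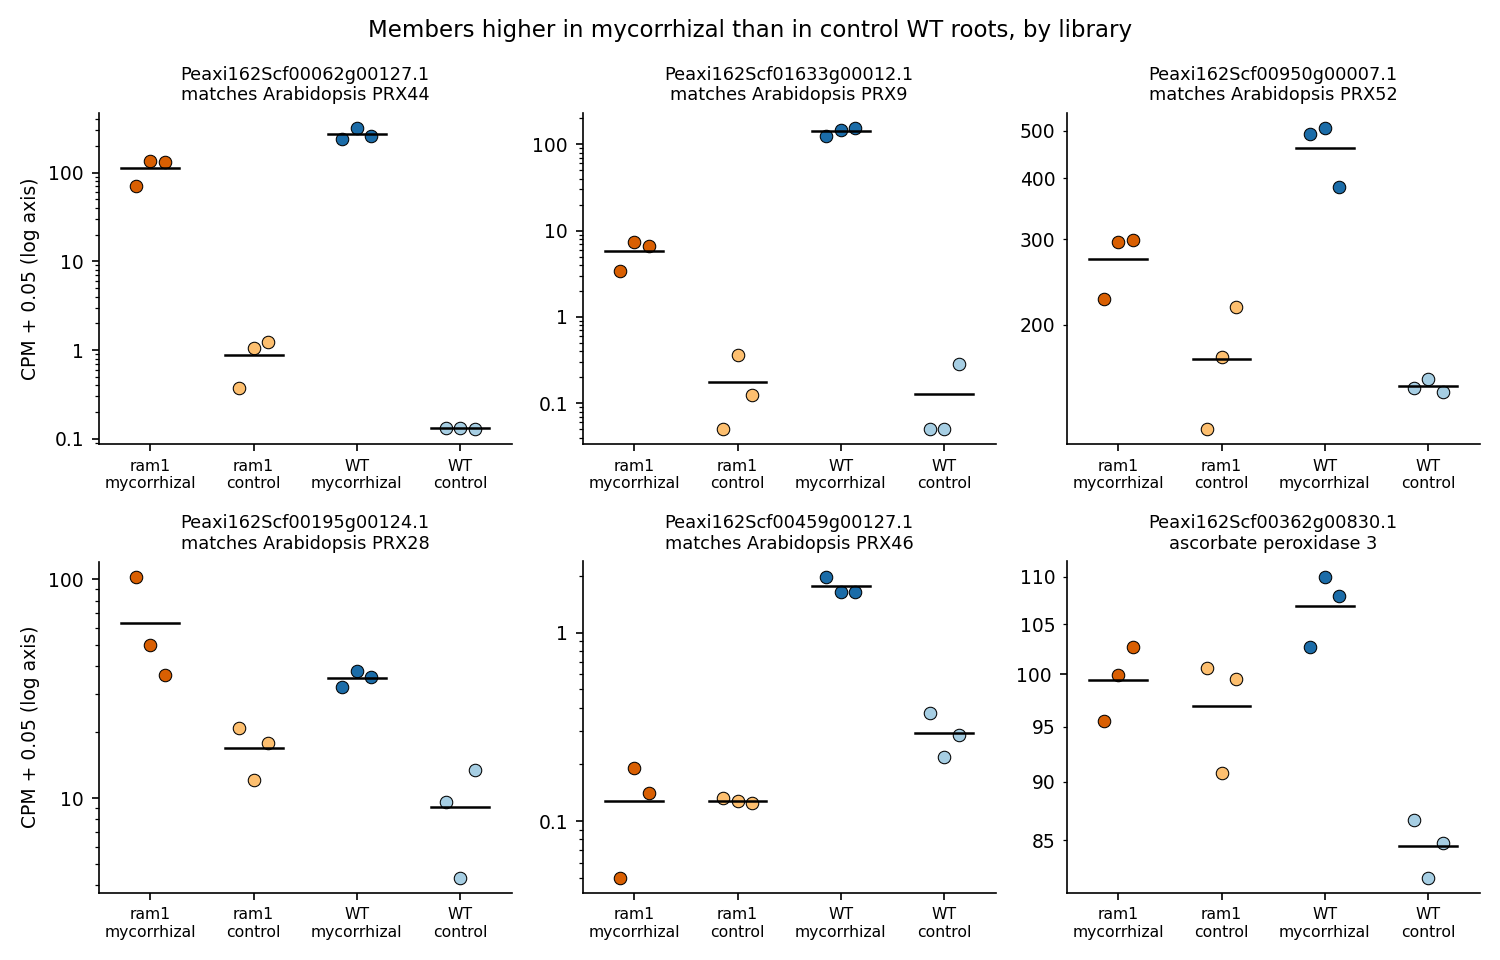
CPM plus 0.05 on a log axis for the 6 members called higher in mycorrhizal than in control WT roots, 1 point per library and a line at the mean of each group of 3. The matches to PRX44 and PRX9 are near 0 in all control libraries, and the PRX9 match reached 3.35 to 7.36 CPM in *ram1* mycorrhizal against 125 to 154 CPM in WT mycorrhizal roots.

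The other members moved less. Of the 116 tested, 4 passed in both genotypes, 18 in *ram1* alone, 12 in WT alone and 82 in neither. A call in only 1 genotype does not show that the responses differed, and the test of the difference passed for 6 members, 3 with a higher and 3 with a lower response in *ram1*, or 2.59% each, where 4.03% and 5.17% of all genes passed and 9.19% in either direction. Without the 2 libraries that stood apart it passed for 10 and 11 members. These were 8.62% and 9.48% of the members, where 9.22% and 9.17% of all genes passed.

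**Figure D3:**
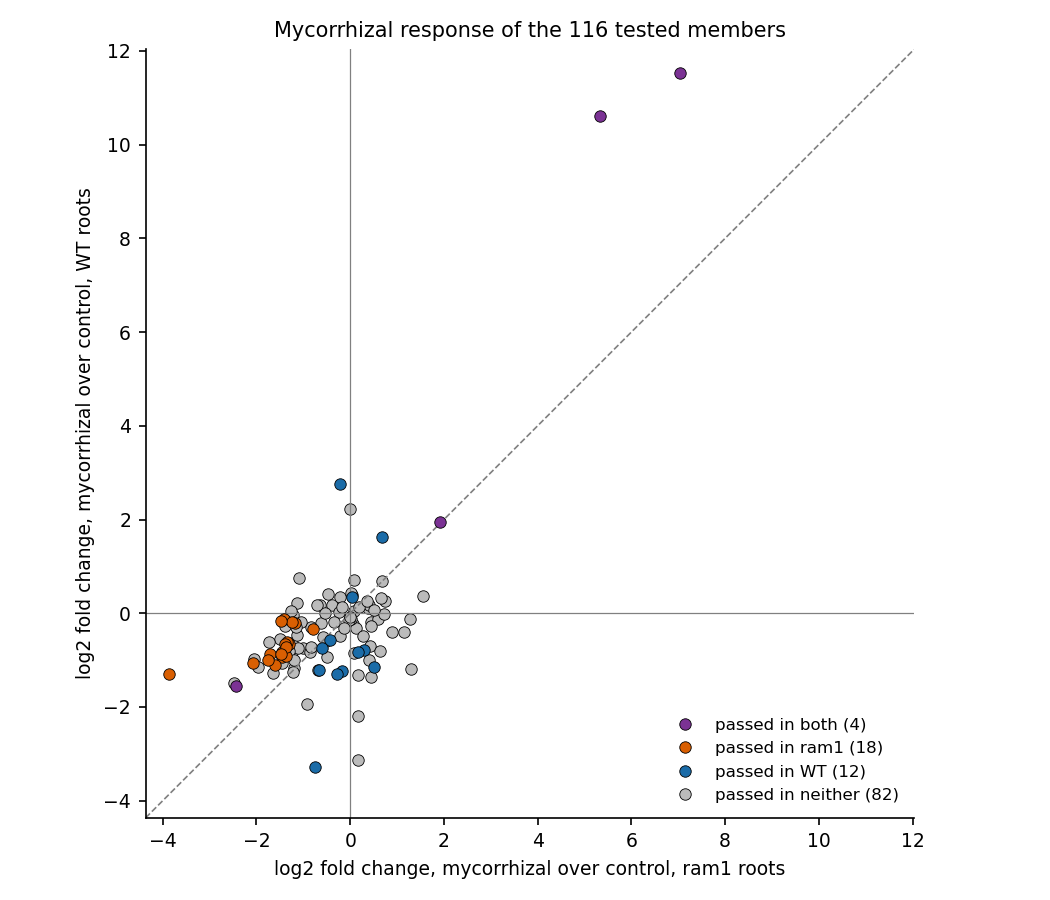
Log2 fold change of mycorrhizal over control roots in *ram1* (horizontal axis) and in WT (vertical axis) for the 116 tested members, coloured by the comparison in which they passed the test; the dashed line marks equal values. The matches to PRX44 and PRX9 stand far from all other members at 7.04 and 5.34 in *ram1* and at 11.5 and 10.6 in WT, and most other points lie below 0 on both axes.

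Among the members lower in *ram1* mycorrhizal roots, Peaxi162Scf00288g00816.1, a match to PRX16, had the smallest p. It had 3.58, 4.10 and 2.53 CPM in *ram1* mycorrhizal against 9.60, 7.86 and 10.7 CPM in *ram1* control roots, and 15.1, 12.5 and 8.09 CPM in WT mycorrhizal against 12.0, 14.4 and 13.6 CPM in WT control roots. The *ram1* libraries did not overlap, whereas the WT libraries did. The log2 fold change was -1.47 ± 0.25 in *ram1* (adjusted p = 0.00817) and -0.17 ± 0.23 in WT, and the difference of -1.31 ± 0.34 passed (adjusted p = 0.0358). This last call was lost without any one of 9 of the 12 libraries, replicate 3 of WT mycorrhizal and replicate 2 of either *ram1* group being the exceptions, with adjusted p of 0.0502 to 0.0831, and without both libraries that stood apart (adjusted p = 0.0579).

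One gene was lower with the fungus in both genotypes. Peaxi162Scf00033g01917.1, a match to PRX24, had 8.79, 9.62 and 3.62 CPM in *ram1* mycorrhizal against 30.1, 34.0 and 53.9 CPM in *ram1* control roots. In WT it had 18.9, 12.2 and 8.32 CPM in mycorrhizal and 19.0, 56.1 and 39.5 CPM in control roots, where 1 control library came close to the mycorrhizal ones. The log2 fold changes were -2.44 ± 0.48 in *ram1* (adjusted p = 0.0152) and -1.54 ± 0.45 in WT (adjusted p = 0.0316). The *ram1* call was lost without replicate 3 of *ram1* mycorrhizal (adjusted p = 0.0562), and the WT call without replicate 2 or 3 of either WT group (adjusted p of 0.0711 to 0.118).

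The other 4 of the 6 lower members in *ram1* with the smallest p had no overlap between the groups either. In all, 42 of the 116 tested members lay wholly below, where 13.9% of all genes did. Peaxi162Scf00388g00041.1, a second match to PRX44, had 0.233, 0.283 and 0.0905 CPM in *ram1* mycorrhizal against 2.22, 2.54 and 4.16 CPM in *ram1* control roots (log2 fold change -3.87 ± 0.83, adjusted p = 0.0211). Its course was thus opposite to that of the PRX44 match that rose. Peaxi162Scf01054g00024.1, a match to PRX45, had 32.8, 24.1 and 28.0 CPM in *ram1* mycorrhizal against 81.6, 64.5 and 75.7 CPM in *ram1* control roots (-1.38 ± 0.27, adjusted p = 0.0157). The remaining 2 were matches to PRX72. They were Peaxi162Scf01385g00031.1 with 21.6, 11.3 and 8.41 CPM in *ram1* mycorrhizal against 45.2, 35.9 and 29.5 CPM in *ram1* control roots (-1.40 ± 0.32, adjusted p = 0.0257), and Peaxi162Scf00010g00815.1 with 39.1, 33.5 and 28.6 CPM against 68.1, 56.2 and 50.2 CPM (-0.78 ± 0.16, adjusted p = 0.0189). All 4 calls were lost without replicate 2 or 3 of *ram1* mycorrhizal, and for the matches to PRX45 and PRX72 also without replicate 1 of *ram1* control, for the matches to PRX72 also without its replicate 2 (adjusted p of 0.0512 to 0.0905 over these cases). With only the 6 *ram1* libraries the calls of the matches to PRX72 were lost too (adjusted p of 0.0662 and 0.0919). Without both libraries that stood apart, the log2 fold change of Peaxi162Scf01385g00031.1 was -2.05 (adjusted p = 0.00116). With all libraries, none of these 4 members passed in WT or in the test of the difference between the responses. Their falls are thus not shown to be particular to *ram1*.

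Grouped by the known roles of their Arabidopsis matches, the endodermal barrier peroxidases (matches to PRX3, PRX9, PRX64 and PRX72) numbered 28, of which 27 were tested. No member matched PRX39. In *ram1* 1 was higher and 8 were lower, with a median log2 fold change of -1.23, and in WT 1 was higher and 1 was lower, with a median of -0.72. Over all genes 4.91% were higher and 5.17% lower in *ram1* and 12.6% were higher and 9.14% lower in WT. At an unadjusted p below 0.05 (edgeR), 14 of the 27 were lower in *ram1* and 10 in WT. The share of all genes at this threshold is not given here. The log2 fold change was below 0 for 22 in *ram1* and 24 in WT. The same held for 73 and 85 of all 116 tested members, and for 10139 and 11522 of the 22954 genes tested. A lean below 0 was thus shared by the members as a whole. None passed the test of the difference between the responses (2 lower at an unadjusted p below 0.05). The member called higher was the same in both genotypes, the PRX9 match described above. The 8 called lower in *ram1* were 3 of 8 matches to PRX3, 3 of 7 matches to PRX64 and 2 of 6 matches to PRX72. Most of these 8 calls hung on single libraries. Of all members, only 2 were lower without replicate 2 of *ram1* mycorrhizal, 1 without its replicate 3 and 3 without replicate 1 of *ram1* control. Summed, the group took 2391 to 2901 CPM in *ram1* mycorrhizal against 3078 to 4476 CPM in *ram1* control roots, without overlap, and 2100 to 3267 CPM in WT mycorrhizal against 2986 to 4355 CPM in WT control roots, with overlap. The endodermis markers, 8 genes of which 7 were tested (matches to the transcription factor MYB36 and to the suberin enzyme GPAT5), summed to 381 to 467 CPM in *ram1* mycorrhizal against 339 to 491 CPM in *ram1* control roots, and to 285 to 304 CPM in WT mycorrhizal against 462 to 563 CPM in WT control roots. Of the 7 markers, 2 were lower in *ram1* and 4 in WT, none higher. The test of the difference between the responses passed for 4 of them, 3 with a higher and 1 with a lower response in *ram1*, where 9.19% of all genes passed. The marker sums overlapped in *ram1* and not in WT, whereas the peroxidase sums overlapped in WT and not in *ram1*. The part of the markers in the peroxidase values was not tested.

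The root hair peroxidases (among them the matches to PRX7 and PRX44) numbered 11, of which 8 were tested. In *ram1* 1 was higher and 2 were lower with a median log2 fold change of -1.64, and in WT 1 was higher and none lower by the edgeR test (1 lower at an unadjusted p below 0.05) with a median of -1.12, where 4.91% and 5.17% of all genes were higher and lower in *ram1* and 12.6% and 9.14% in WT. The summed level, which holds the PRX44 match that was higher, was 144 to 154 CPM in *ram1* mycorrhizal against 68.4 to 201 CPM in *ram1* control roots and 281 to 369 CPM in WT mycorrhizal against 56.5 to 127 CPM in WT control roots. The *ram1* mycorrhizal sums lay within the range of the *ram1* control sums, and the WT mycorrhizal sums lay above the WT control sums although the median was below 0. The root hair markers, 8 genes of which 7 were tested (5 of them matches to expansin A7), summed to 12.0 to 25.1 CPM in *ram1* mycorrhizal against 32.2 to 81.7 CPM in *ram1* control roots, and to 12.2 to 24.9 CPM in WT mycorrhizal against 31.9 to 56.9 CPM in WT control roots. Of the 7, 5 were lower in *ram1* and 2 in WT. Their sums were lower in mycorrhizal roots of both genotypes without overlap, and their part in the peroxidase values was not tested.

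The stem lignin peroxidases (among them the matches to PRX25, PRX52 and PRX72) numbered 31, of which 30 were tested, and shared the matches to PRX72 with the endodermal group. None was higher by the edgeR test (2 at an unadjusted p below 0.05) and 6 were lower in *ram1*, and 1 was higher and 1 lower in WT, with medians of 0.03 and -0.19. Over all genes 4.91% were higher and 5.17% lower in *ram1* and 12.6% higher and 9.14% lower in WT. Of the 21 tested matches to PRX52, 4 were lower in *ram1*, and 2 of these, Peaxi162Scf00595g00215.1 and Peaxi162Scf02077g00003.1, had no read that mapped to a single gene, so that they may be 1 source of reads counted under 2 names. They had 277, 154 and 163 CPM and 260, 165 and 158 CPM in *ram1* mycorrhizal against 679, 416 and 380 CPM and 677, 420 and 388 CPM in *ram1* control roots (log2 fold changes -1.31 ± 0.36 and -1.35 ± 0.35). Both calls were lost without replicate 2 or 3 of *ram1* mycorrhizal, replicate 1 or 2 of *ram1* control, replicate 1 or 2 of WT mycorrhizal or replicate 3 of WT control (adjusted p of 0.0519 to 0.156), and with only the 6 *ram1* libraries (0.0858 and 0.0706). No member matched PRX33 or PRX34, the peroxidases of the immune oxidative burst in Arabidopsis.

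Of the 10 members lower in WT, 5 were among the 12 highest by RPKM, and the other 5 ranked 23 to 72. Peaxi162Scf00262g01516.1, a match to PRX42, ranked 2 of all members by RPKM. It had 821, 643 and 615 CPM in *ram1* mycorrhizal against 694, 889 and 770 CPM in *ram1* control roots, and 343, 411 and 453 CPM in WT mycorrhizal against 891, 941 and 989 CPM in WT control roots. The *ram1* groups overlapped, whereas the WT mycorrhizal libraries were the lowest of all 12. The log2 fold change was -0.18 ± 0.15 in *ram1* and -1.22 ± 0.15 in WT (adjusted p = 0.000222), and the difference of 1.05 ± 0.22 passed (adjusted p = 0.0135). In mycorrhizal roots *ram1* was above WT by 0.78 ± 0.15 (adjusted p = 0.00148).

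A second match to PRX42 followed the same course at a lower level. Peaxi162Scf02148g00213.1 had 165, 118 and 128 CPM in *ram1* mycorrhizal against 153, 183 and 168 CPM in *ram1* control roots, and 64.7, 81.7 and 94.0 CPM in WT mycorrhizal against 188, 202 and 199 CPM in WT control roots. It fell by 1.29 ± 0.16 on the log2 scale in WT (adjusted p = 0.000171) against a value of -0.29 ± 0.15 in *ram1*, and the difference was 1.00 ± 0.22 (adjusted p = 0.0179). The call of the difference was lost without replicate 1 of WT mycorrhizal (adjusted p = 0.0507), replicate 2 of WT control (0.0523) or replicate 1 of *ram1* control (0.0586). Nearly all reads of both genes mapped to a single place (99.8% each), so that they were counted apart. The other PRX42 match that was tested, Peaxi162Scf00331g01024.1, passed in neither response (-0.18 ± 0.70 in *ram1* and 0.13 ± 0.46 in WT).

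Peaxi162Scf00912g00139.1, a match to PRX30, had 447, 316 and 377 CPM in *ram1* mycorrhizal against 348, 305 and 370 CPM in *ram1* control roots, and 242, 267 and 243 CPM in WT mycorrhizal against 438, 394 and 513 CPM in WT control roots. It was lower in all WT mycorrhizal libraries than in any other library. The log2 fold change was 0.16 ± 0.15 in *ram1* and -0.84 ± 0.15 in WT (adjusted p = 0.002), with a difference of 0.99 ± 0.21 (adjusted p = 0.0137). Peaxi162Scf00005g00318.1, a match to PRX21, had 787, 1097 and 1151 CPM in *ram1* mycorrhizal against 717, 832 and 918 CPM in *ram1* control roots, and 411, 426 and 263 CPM in WT mycorrhizal against 554, 578 and 762 CPM in WT control roots. It was lower in WT mycorrhizal roots (-0.78 ± 0.22, adjusted p = 0.0248), but not without replicate 3 of WT mycorrhizal (adjusted p = 0.0794) or replicate 3 of WT control (0.0828), and the difference between the responses did not pass (1.08 ± 0.31, adjusted p = 0.0509).

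**Figure D4:**
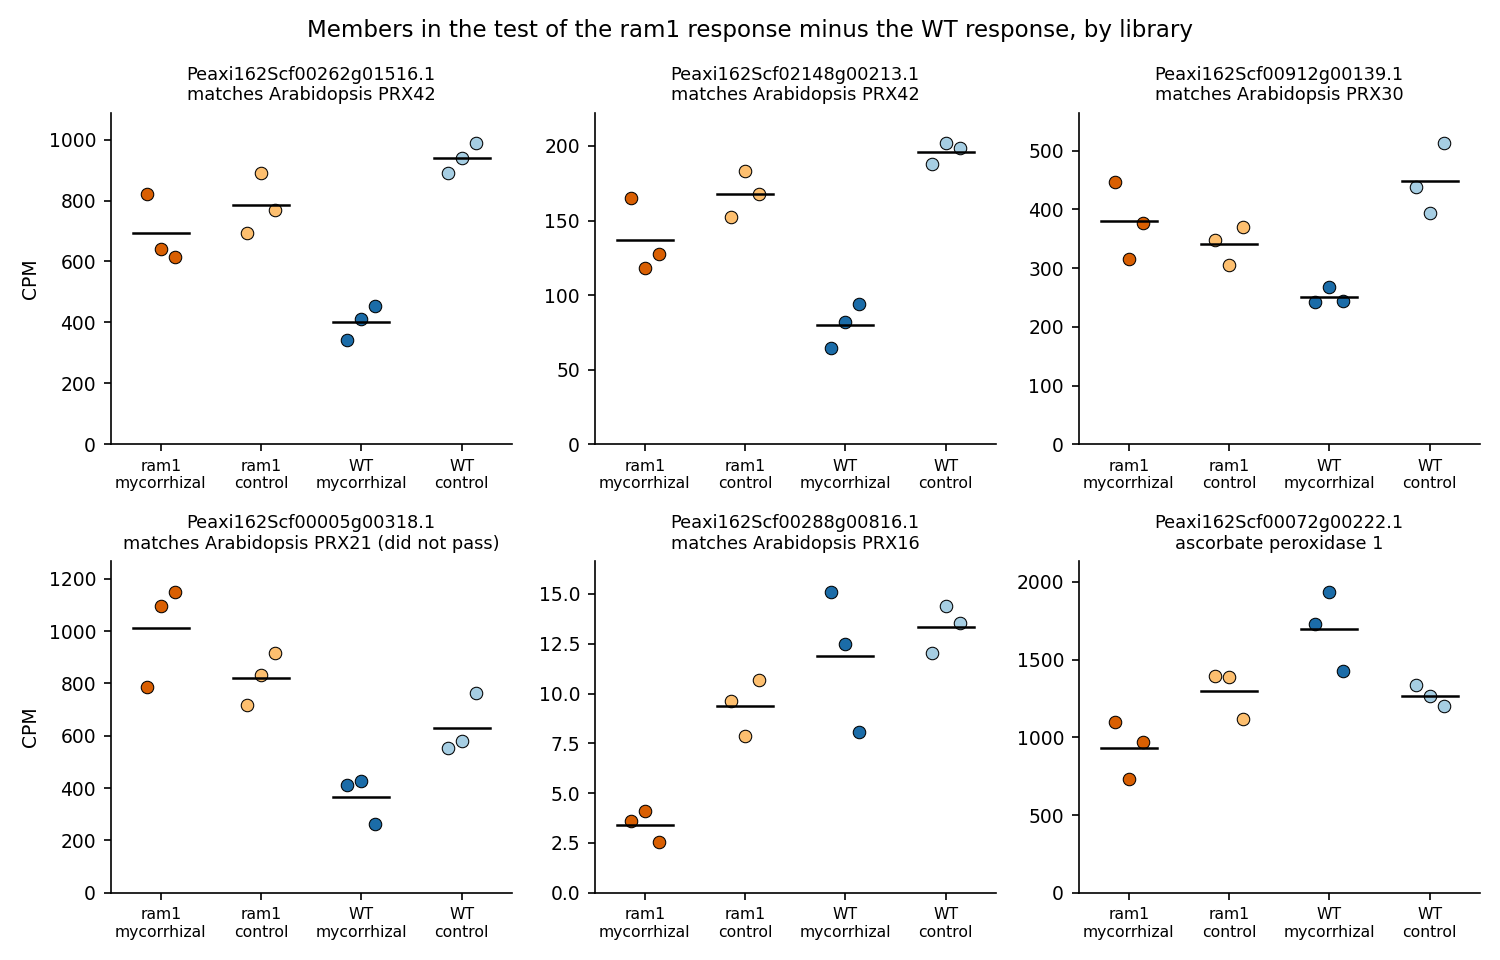
CPM by library for 5 of the 6 members whose mycorrhizal response differed between *ram1* and WT, and for the PRX21 match, whose difference did not pass; points are libraries and lines the means of 3. The 2 matches to PRX42 and the match to PRX30 are lowest in the 3 WT mycorrhizal libraries, and ascorbate peroxidase 1 and the PRX16 match are lowest in the 3 *ram1* mycorrhizal libraries.

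The remaining members called lower in WT were less steady. Peaxi162Scf00007g01118.1, a match to PRX3 with a transcript model of 1899 bases, had 252, 258 and 134 CPM in WT mycorrhizal and 729, 319 and 437 CPM in WT control roots (-1.21 ± 0.32, adjusted p = 0.0207), and the call was lost without replicate 3 of WT mycorrhizal (adjusted p = 0.0682) or replicate 1 of WT control (0.0783). Peaxi162Scf00188g00624.1, a match to PRX11, had 3.23, 1.59 and 5.19 CPM in WT mycorrhizal and 70.9, 14.7 and 12.5 CPM in WT control roots (-3.28 ± 0.67, adjusted p = 0.00504). Its value was -2.02 without replicate 1 of WT control, which was far above the other control libraries. Peaxi162Scf00993g00330.1, a match to PRX10, fell by 0.58 ± 0.17 (adjusted p = 0.0296), a call lost without replicate 2 or 3 of WT mycorrhizal or replicate 1 or 3 of WT control (adjusted p of 0.0562 to 0.108). A match to PRX52, Peaxi162Scf00284g00022.1, passed with overlapping groups (-1.15 ± 0.37, adjusted p = 0.0494), and the call was lost without any one of 9 of the 12 libraries, replicate 3 of WT control and replicates 1 and 3 of *ram1* control being the exceptions (adjusted p of up to 0.17), with only the 6 WT libraries (0.0519) and with no filter on low counts (0.0516). The last of the 10, named after its values were seen, was a match to PRX31, Peaxi162Scf00129g00814.1 (-0.75 ± 0.22, adjusted p = 0.0323), whose groups overlapped too.

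The 6 ascorbate peroxidases did not share a course. Ascorbate peroxidase 1 (Peaxi162Scf00072g00222.1), the cytosolic enzyme, was the most abundant member by RPKM (1724). It had 1098, 731 and 973 CPM in *ram1* mycorrhizal against 1396, 1386 and 1118 CPM in *ram1* control roots, and 1727, 1938 and 1426 CPM in WT mycorrhizal against 1337, 1267 and 1204 CPM in WT control roots. The 3 *ram1* mycorrhizal libraries were the lowest of all 12, and the 3 WT mycorrhizal ones the highest. Neither response passed on its own (-0.48 ± 0.17 in *ram1*, adjusted p = 0.1, and 0.42 ± 0.17 in WT, adjusted p = 0.116), and their difference did (-0.90 ± 0.25, adjusted p = 0.0458). That call was lost without any 1 of 9 libraries, the exceptions being replicate 3 of WT mycorrhizal, replicate 1 of *ram1* mycorrhizal and replicate 3 of *ram1* control (adjusted p of 0.0738 to 0.113), and with no filter on low counts (0.0503). In mycorrhizal roots *ram1* was below WT by a log2 fold change of -0.86 ± 0.18 (adjusted p = 0.00192).

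Of the 3 matches to ascorbate peroxidase 3, the peroxisomal form, Peaxi162Scf00362g00830.1 had 103, 110 and 108 CPM in WT mycorrhizal and 86.7, 81.9 and 84.7 CPM in WT control roots, a small and even difference (0.34 ± 0.08, adjusted p = 0.00836), and 95.5, 99.9 and 103 CPM in *ram1* mycorrhizal against 101, 90.8 and 99.4 CPM in *ram1* control roots. The other two, Peaxi162Scf00051g00126.1 and Peaxi162Scf00328g00622.1, did not pass in either genotype. Ascorbate peroxidase 2 (Peaxi162Scf00005g00505.1), a cytosolic form induced by stress in Arabidopsis, differed between the genotypes instead. It had 0.156, 0.566 and 0.452 CPM in *ram1* mycorrhizal against 3.23, 4.86 and 6.26 CPM in WT mycorrhizal roots (-3.69 ± 0.48, adjusted p = 0.000106), and was lower in *ram1* control roots too (-2.81 ± 0.41, adjusted p = 0.000323). Ascorbate peroxidase 6 (Peaxi162Scf00785g00113.1) was higher in *ram1* mycorrhizal than in WT mycorrhizal roots with 6.15, 7.08 and 6.51 CPM against 3.04, 3.52 and 3.59 CPM (0.95 ± 0.29, adjusted p = 0.0179), but not without replicate 1 of WT mycorrhizal (adjusted p = 0.0715).

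Several of the most abundant members did not pass in either response. The 2 neighbouring matches to PRX72, Peaxi162Scf00418g01014.1 and Peaxi162Scf00418g01015.1, ranked 3 and 5 by RPKM (764 and 491). The first had 658, 807 and 923 CPM in *ram1* mycorrhizal against 631, 466 and 653 CPM in *ram1* control roots, and 753, 870 and 701 CPM in WT mycorrhizal against 1311, 630 and 720 CPM in WT control roots. Replicate 1 of WT control was the highest library for both genes. Peaxi162Scf01328g00009.1, a match to PRX52, was at 337 to 570 CPM in all 12 libraries, with log2 fold changes of 0.38 in *ram1* and 0.12 in WT. The matches to PRX47 (Peaxi162Scf00577g00210.1) and PRX59 (Peaxi162Scf00192g00024.1) ranked among the first 12 by RPKM as well and passed in neither response. Peaxi162Scf00360g00011.1, a match to PRX12, was higher in *ram1* mycorrhizal with 790, 880 and 538 CPM against 195, 233 and 132 CPM in WT mycorrhizal roots (1.98 ± 0.41, adjusted p = 0.00227), while its control libraries of the 2 genotypes overlapped.

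Between the genotypes far more members differed than between mycorrhizal and control roots, as did all genes, of which 52.7% differed between *ram1* and WT in mycorrhizal and 36.3% in control roots. In mycorrhizal roots 31 members were higher in *ram1* than in WT, or 26.7% of those tested, where 26.7% of all genes were, and 38 were lower, or 32.8%, where 25.9% were. In control roots 20 were higher, or 17.2%, where 18.8% of all genes were, and 16 were lower, or 13.8%, where 17.5% were. The shares of higher members were close to those of all genes. The share of lower members was above that of all genes in mycorrhizal roots and below it in control roots. With 1 library left out, the lower members numbered 31 to 44 in mycorrhizal and 14 to 19 in control roots. Whether the shares differ from those of all genes was not tested. Of the higher members, 17 passed in both kinds of root, 17 of 31 in mycorrhizal and 17 of 20 in control roots, and of the lower ones 15 did, 15 of 38 and 15 of 16. Every *ram1* library lay above every WT library for 31 of the 116 tested members in mycorrhizal roots, where 30.8% of all genes did. In control roots this held for 22 of the 116, where 24.6% of all genes did. Every one lay below for 35 of the 116 in mycorrhizal roots, where 30.2% of all genes did. In control roots 28 of the 116 did, where 22.9% of all genes did. The shares of members were below those of all genes on the higher side and close to them on the lower side. Without the 2 libraries that stood apart, 32 members were called higher and 45 lower in mycorrhizal and 24 higher and 16 lower in control roots. These were 27.6%, 38.8%, 20.7% and 13.8% of the members, where 26.1%, 26.2%, 18.5% and 17.7% of all genes passed.

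Some members were read in 1 genotype only or nearly so. Peaxi162Scf00707g00020.1, a match to PRX48, had no read in any *ram1* library against 264 reads in WT mycorrhizal and 57 in WT control roots, at least 76.0-fold lower in *ram1* mycorrhizal and at least 19.8-fold lower in *ram1* control roots (floor of 3 reads per group). Peaxi162Scf00595g00023.1, a match to PRX52, had 0.0778, 0.142 and 0.181 CPM in *ram1* mycorrhizal against 27.4, 44.0 and 24.0 CPM in WT mycorrhizal roots, and 0.0821, 0.231 and 0.0742 CPM in *ram1* control against 57.6, 11.2 and 31.6 CPM in WT control roots. The log2 fold changes were -7.83 ± 0.80 and -7.90 ± 0.77 (adjusted p = 1.88e-05 and 1.87e-05). The control value was -7.28 without replicate 1 of WT control and -8.56 without replicate 2 of *ram1* control. The same scaffold holds Peaxi162Scf00595g00215.1, which was higher in *ram1* in both kinds of root (1.51 and 2.16), and Peaxi162Scf00595g00216.1, which passed in no comparison.

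In the other direction, Peaxi162Scf00048g02228.1, a match to PRX3, had 5.21, 2.83 and 2.26 CPM in *ram1* mycorrhizal against 1 read in all WT mycorrhizal libraries (ratio 130, counting interval 22.8 to 5169). It had 8.37, 5.55 and 11.3 CPM in *ram1* control against 1 read in all WT control libraries (ratio 312, 55.6 to 12367). Without replicate 1 of WT mycorrhizal or replicate 3 of WT control, which held those reads, WT had none. Its neighbour Peaxi162Scf00048g02227.1, a match to PRX24, was lower in *ram1* mycorrhizal roots with 30.0, 12.9 and 12.9 CPM against 100, 72.9 and 54.1 CPM in WT mycorrhizal roots (-2.01 ± 0.40, adjusted p = 0.00175), though only 39.5% of its reads mapped to a single place. Peaxi162Scf00137g00016.1, a match to PRX52, had 112, 146 and 133 CPM in *ram1* mycorrhizal against 0.922, 4.19 and 2.29 CPM in WT mycorrhizal roots, and 70.5, 66.5 and 149 CPM in *ram1* control against 15.6, 2.10 and 1.41 CPM in WT control roots (log2 fold changes 5.71 ± 0.85 and 3.90 ± 0.76). These became 6.30 without replicate 2 of WT mycorrhizal and 5.74 without replicate 1 of WT control, the highest library of each WT group.

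Matches to a barrier peroxidase were also found on the lower side. Peaxi162Scf01385g00031.1, the PRX72 match that was lower with the fungus in *ram1*, had 21.6, 11.3 and 8.41 CPM in *ram1* mycorrhizal against 151, 158 and 105 CPM in WT mycorrhizal roots, and 45.2, 35.9 and 29.5 CPM in *ram1* control against 121, 182 and 149 CPM in WT control roots. The groups were far apart in both kinds of root (-3.31 ± 0.34, adjusted p = 1.81e-05, and -2.03 ± 0.32, adjusted p = 0.000509). The third PRX42 match, Peaxi162Scf00331g01024.1, had 1.40, 0.283 and 0.271 CPM in *ram1* mycorrhizal against 9.68, 15.5 and 5.65 CPM in WT mycorrhizal roots (-3.83 ± 0.59, adjusted p = 0.000321, and -5.16 without replicate 1 of *ram1* mycorrhizal), the reverse of the 2 other PRX42 matches. In mycorrhizal roots 26.7% of all genes were higher and 25.9% lower in *ram1* than in WT. All 3 members on the scaffold Peaxi162Scf00228 were lower in *ram1* mycorrhizal than in WT mycorrhizal roots: the matches to PRX52 (Peaxi162Scf00228g00732.1, -1.35 ± 0.32), PRX40 (Peaxi162Scf00228g00514.1, -0.94 ± 0.12) and PRX29 (Peaxi162Scf00228g00322.1, -2.40 ± 0.39). On the scaffold Peaxi162Scf00328 the 2 matches to PRX64 were higher in *ram1* mycorrhizal roots (Peaxi162Scf00328g00314.1, 1.74 ± 0.18, and Peaxi162Scf00328g00220.1, 2.40 ± 0.70), although the second value was 4.19 without replicate 1 and 1.79 without replicate 3 of WT mycorrhizal, and its call was lost without replicate 2 of WT mycorrhizal (2.09, adjusted p = 0.054).

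**Figure D5:**
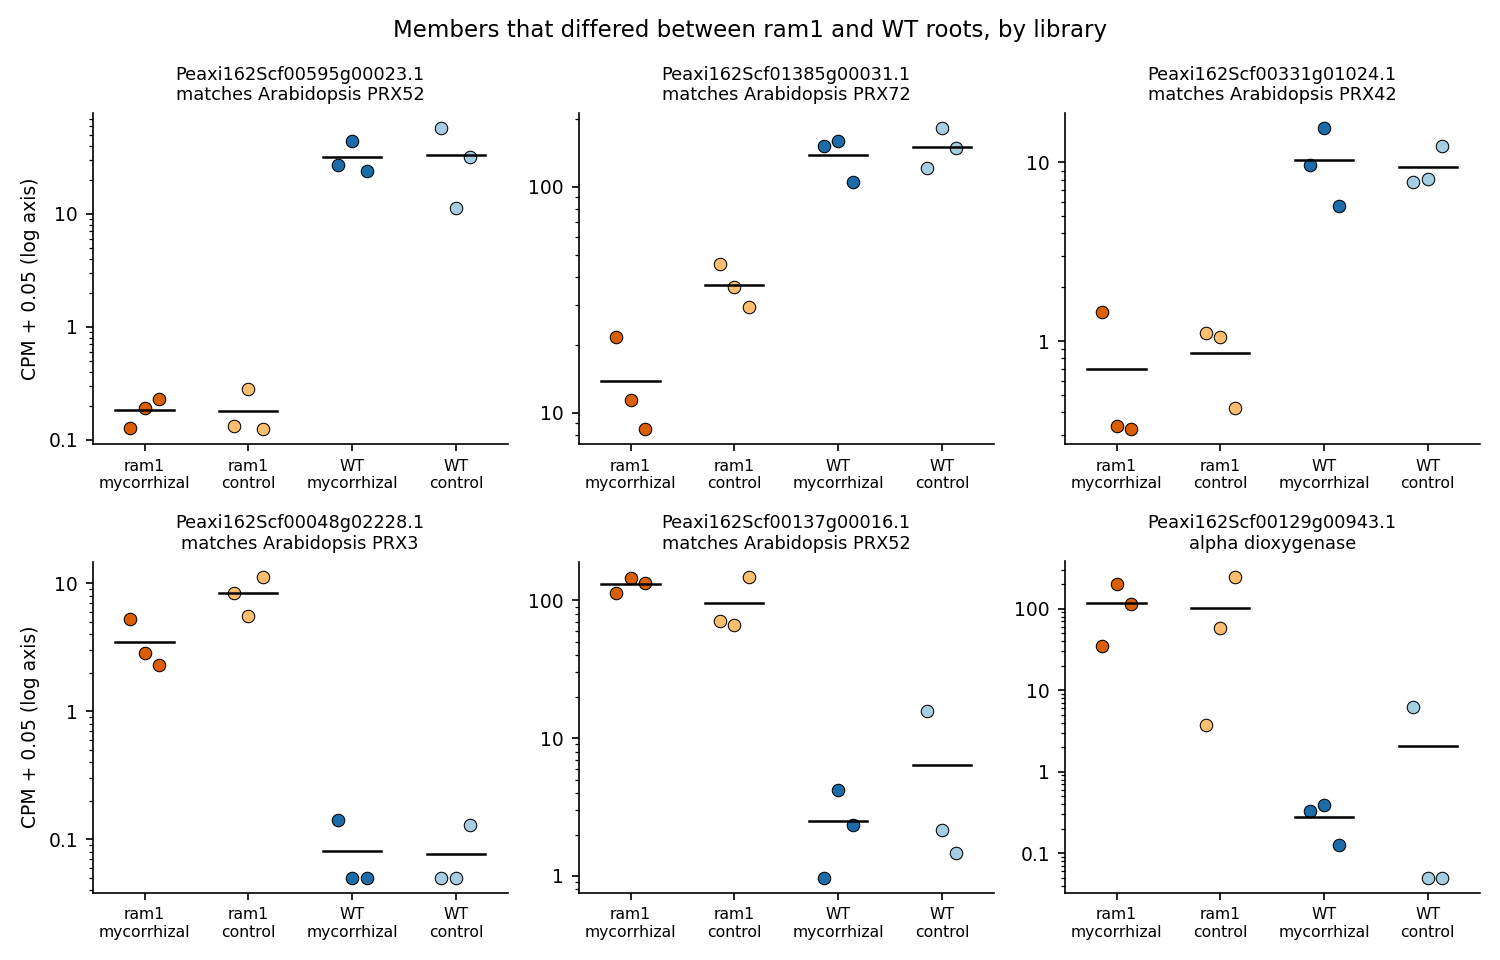
CPM plus 0.05 on a log axis for 6 members that differed between *ram1* and WT in both kinds of root, 1 point per library and a line at the mean of each group of 3. The PRX52 match Peaxi162Scf00595g00023.1 was below 0.3 CPM in all 6 *ram1* libraries and at 11.2 CPM or more in all 6 WT libraries, and the alpha dioxygenase spread from 3.69 to 248 CPM among *ram1* control libraries.

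The tested alpha dioxygenases, which the rule brings in through their haem peroxidase domain, were higher in *ram1*. Of the 5, 3 were tested, and 2 of these are neighbours on 1 scaffold. All 3 were called higher in *ram1* in both kinds of root, where 26.7% of all genes were in mycorrhizal and 18.8% in control roots. They passed in neither response. Peaxi162Scf00129g00943.1 had 34.4, 199 and 116 CPM in *ram1* mycorrhizal against 0.277, 0.335 and 0.0764 CPM in WT mycorrhizal roots (8.95 ± 2.00, adjusted p = 0.00338, and 8.32 without replicate 2 of *ram1* mycorrhizal). In control roots it had 3.69, 57.5 and 248 CPM in *ram1* against 6.10, 0 and 0 CPM in WT (5.66 ± 1.53, adjusted p = 0.014). Among *ram1* control libraries the lowest lay below the highest WT one, and the value changed to 3.91 without replicate 3 of *ram1* control to 13.25 without replicate 1 of WT control, and to 5.06 and 5.04 without its replicates 2 and 3. The control call was lost when only the 6 control libraries were fitted (adjusted p = 0.0523). Its neighbour Peaxi162Scf00129g00942.1 showed the same order of libraries at a lower level, with 0.903, 9.01 and 65.4 CPM in *ram1* control roots against 1.54, 0 and 0.470 CPM in WT control roots, and its call there was lost without replicate 3 of *ram1* control (log2 fold change 2.87 against 5.20 with it) or replicate 2 or 3 of WT control (4.61 and 4.97). The third, Peaxi162Scf00683g00250.1, was even among replicates with 11.7, 5.94 and 9.68 CPM in *ram1* mycorrhizal against 1.94, 1.84 and 1.53 CPM in WT mycorrhizal roots (2.37 ± 0.26, adjusted p = 2.93e-05).

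Some members are uncertain because their reads were shared with near-identical copies. Of the 116 tested members, 9 had less than 50% of their reads mapped to a single gene, whereas the median member had 100%. Peaxi162Scf00595g00215.1, Peaxi162Scf02077g00003.1 and Peaxi162Scf73589g00001.1 had none at all. With reads that mapped to a single place in the place of all reads, 3 members were higher and 18 lower in *ram1* and 6 higher and 12 lower in WT.

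Other genes of hydrogen peroxide and lignin metabolism are given by counts, to be read against the shares of all genes, which were 4.91% higher and 5.17% lower in *ram1* and 12.6% higher and 9.14% lower in WT. Of 9 tested NADPH oxidases, which make the superoxide that yields hydrogen peroxide, none was higher by the edgeR test (1 at an unadjusted p below 0.05) and 4 were lower in *ram1*, and 1 was lower in WT, with medians of -0.54 and -0.47. The one lower in WT was Peaxi162Scf00418g00114.1 (RBOHF match), with 24.2 CPM in *ram1* mycorrhizal against 29.5 in *ram1* control roots, and 14.7 in WT mycorrhizal against 40.3 in WT control roots (mean of 3 each). Of 9 tested superoxide dismutases, which turn superoxide into hydrogen peroxide, none passed the edgeR test in *ram1* (3 were higher at an unadjusted p below 0.05) and 2 were higher in WT. Their copper chaperone, found by the same search of the descriptions, was higher in WT as well. None of 3 tested catalases passed the edgeR test in either response, where 1 in *ram1* and 0 in WT had an unadjusted p below 0.05. Of 7 glutathione peroxidases none passed in *ram1* (1 at an unadjusted p below 0.05) and 1 was higher in WT. Of 26 tested laccases, the copper enzymes that also oxidise lignin precursors, 3 were lower in *ram1*, and 2 were higher and 9 lower in WT, with medians of -0.97 and -1.14. Of 29 tested dirigent proteins, 2 were higher and 6 lower in *ram1* and 3 higher and 4 lower in WT. Of 25 genes of monolignol synthesis, 1 was higher and 2 lower in *ram1* and 1 higher and 1 lower in WT. The one higher in both was a match to 4-coumarate:CoA ligase 2, Peaxi162Scf00409g00123.1, with 26.7 CPM in *ram1* mycorrhizal against 0.0274 in *ram1* control roots and 244 CPM in WT mycorrhizal against 0.0271 in WT control roots, each control mean standing for 1 read.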

How the data were processed

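Root RNA was sequenced from 12 libraries (4 groups of 3 replicate plants, as labelled). The authors trimmed the reads, aligned them to the Petunia axillaris reference transcripts in CLC Genomics Workbench with up to 10 hits per read, and deposited read counts per gene model, with an intact pair counted as 2 and a broken pair as 1, together with RPKM values. Total gene reads, which include reads that match several genes, were the main values, and unique gene reads an alternative. How reads with several hits were shared out is not given in the sources used here. The 2 tables, of 32928 gene models each, were joined by gene ID. Columns with the authors' own comparisons (fold changes of proportions and adjusted p-values of a proportion test) were not used. RPKM served only to rank levels between members.

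Genes with a mean of at least 10 reads in 1 group were tested (22954) with edgeR 4.0.16 in R 4.3.3 (TMM scaling, quasi-likelihood test, 1 fit over all 12 libraries, Benjamini-Hochberg adjustment over all genes, threshold 0.05). This count test replaced the proportion test of the study. Standard errors are the log2 fold change divided by the root of F. Comparisons were mycorrhizal against control in each genotype, *ram1* against WT in each kind of root, and the difference between the mycorrhizal responses. Ratios that involve a group with 1 to 3 reads carry exact 95% intervals, which cover counting error only, and a group with 0 reads was set to a floor of 3. In simulated counts for the WT comparison (22954 genes), edgeR called 34 of 100 genes changed 2-fold and 90 of 100 changed 5-fold, with 11 false calls. On the same counts DESeq2 called 58 and 92, with 34 false calls. The changed genes were drawn from all genes, and every other gene had the same mean in all 4 groups. In the data 21.7% of all genes passed in WT, so that the simulated shares need not hold for the members. Alternatives were DESeq2 1.42.0, its size factors in edgeR, no filter, the 6 libraries of a comparison alone, the replicate number as a block, and each library left out. Leaving out both libraries that stood apart was added after seeing the data.

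Members named in the text are, for each comparison, up to 6 higher and 6 lower with the smallest p among those that passed, the 12 with the highest RPKM, all not described as peroxidase superfamily protein, and those on scaffolds with 3 or more members of which 1 was named so; of these, the ones that differ most are described. Genes of other lists are given by counts. The members and lists were chosen with earlier results of these data known. The p-values measure the spread between the labelled replicates.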

Additional observations from a re-analysis of the deposited data

Results flagged for a closer look

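The mycorrhizal response of 6 members differed between *ram1* and WT by the edgeR interaction test, given here as the response in *ram1* minus that in WT on the log2 scale. It was -4.50 for the PRX44 match Peaxi162Scf00062g00127.1, 1.05 for the PRX42 match Peaxi162Scf00262g01516.1, 1.00 for the PRX42 match Peaxi162Scf02148g00213.1 and 0.99 for the PRX30 match Peaxi162Scf00912g00139.1. It was -1.31 for the PRX16 match Peaxi162Scf00288g00816.1 and -0.90 for ascorbate peroxidase 1, Peaxi162Scf00072g00222.1. The first gene had 33 reads in *ram1* control and 3 in WT control roots, so that its difference hangs on few reads.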

How the results depend on the processing

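Of 1774 repeats of the 94 results for named members, 1653 kept direction and call, 121 kept direction and lost the call, and none reversed. All 94 had passed in the main fit, and the repeats shared most libraries with it, so that reversals were unlikely beforehand. The call was kept throughout for 68 of the 94. Among named calls of the *ram1* response, only the PRX44 match that rose and the matches to PRX9 and PRX16 kept it. Among calls of the difference between responses, only that PRX44 match, the PRX42 match Peaxi162Scf00262g01516.1 and the PRX30 match did. The number of members lower in *ram1* moved by more than 1.5 times in 11 of 19 settings, that of responses lower in *ram1* than in WT in 9 of 18 and higher in 3 of 18, that of members lower in WT in 4 of 19 and higher in *ram1* in 2 of 19; the other counts moved in none. With DESeq2 34 members were lower in *ram1* mycorrhizal than control roots, and the response was higher in *ram1* for 6 and lower for 7. With only the 6 *ram1* libraries, 6 members were lower in *ram1*. Without replicate 1 of *ram1* mycorrhizal and replicate 3 of *ram1* control, 11 were higher and 43 lower in *ram1*, 16 were lower in WT, and 10 responses were higher and 11 lower in *ram1*. With each library left out, the range was 2 to 8 higher and 1 to 37 lower in *ram1*, 6 to 7 higher and 4 to 12 lower in WT, and 2 to 6 higher and 1 to 5 lower for the difference between responses. Between *ram1* and WT it was 27 to 32 higher and 31 to 44 lower in mycorrhizal and 14 to 24 higher and 14 to 19 lower in control roots. DESeq2 size factors in edgeR, no filter and unique gene reads kept all counts within 1.5 times. Deviations of same-numbered replicates had correlations from -0.222 to 0.360, which cannot settle with 3 replicates per group whether the samples were paired. With a replicate block 3 members were higher and 15 lower in *ram1*, 7 higher and 7 lower in WT. With it, 3 responses were higher and 1 lower in *ram1*. The block also lost the call of the alpha dioxygenase Peaxi162Scf00129g00943.1 in control roots (adjusted p = 0.0832). Groups of 3 and members with few reads limit what could be called. In simulated WT counts edgeR called 34 of 100 genes changed 2-fold, where only 100 genes changed 2-fold and 100 changed 5-fold. In the data far more genes passed (21.7% in WT), so that this share is no measure of what could be called among the members. The causes of the changes between settings were not tested.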
